A study of Mus musculus with 2 samples.

Results

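The genes described here are the collagens of the mouse, taken as the protein-coding genes whose symbol is Col, a number, the letter a and a number in the RefSeq gene table of assembly GRCm38.p6. There were 44 of them among 21900 protein-coding genes. They were sorted by the structure their protein forms into 11 fibrillar, 9 network and 24 other collagens. A peak was given to a collagen when its summit lay in the gene span, introns included, and 221 of 21192 peaks in the list met this rule. None of the 221 summits lay in another protein-coding gene as well, while 13 also lay in a long non-coding RNA gene (5 in Col4a1, 3 each in Col5a1 and Col15a1, and 2 in Col27a1).

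RNA was taken from whole uterus of wild-type animals at day 4 of gestation. One library held polyA RNA fragments pulled down by an antibody against N4-acetylcytidine (ac4C), and 1 library held the input control. Neither strain, age nor the number of animals behind each library was given in the labels. Each group held 1 library, so no value below has a replicate check, and no test of a difference was made. For each peak the authors' caller gave a fold enrichment, which is the number of fragments at the summit plus 1 over the estimated background plus 1. The fragments and background were worked out from that value and its p-value, and each bracketed range after a fold enrichment covers 95% exact Poisson limits for that fragment number. In bulk tissue, fewer cells of a type and less RNA per cell cannot be told apart. Of 9 marker genes of the layers of the uterus, Krt8 and Krt18 (epithelium), Vim, Pdgfra and Hand2 (stroma) and Acta2, Myh11 and Des (myometrium) held 3 to 17 peaks each, and the epithelial marker Epcam held 0.

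Collagens are the main proteins of the extracellular matrix. Each has a triple helix of chains with glycine at regular places among many proline and hydroxyproline residues. Fibrillar collagens assemble into the rope-like fibrils of the stroma. Network collagens form sheets, of which type IV is the scaffold of basement membranes, the layer on which epithelium, muscle cells and vessels rest. The others decorate fibrils, form beaded filaments, anchor the basement membrane or span the cell membrane. In the uterus, stromal fibrils and the basement membrane below the luminal epithelium are remodelled around implantation. N4-acetylcytidine is an acetylated form of cytidine, placed on RNA by the enzyme NAT10.

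RefSeq start windows, which run from 250 bases before a start to 50 after it, were at hand for 35 of the 44 collagens, in 38 windows, and a peak touched 3 of these. The sequence under the summit could be read from such a window for 2 collagen peaks, and both are shown for the letters that lay at the top of a peak. One is in Col4a2, at the shared head of the Col4a1 and Col4a2 genes, which are read in opposite directions. The other is near the end of Col5a1, where the window belongs to the non-coding gene Gm13372. Each is written 5′ to 3′ on the strand of the collagen gene (GRCm38.p6, plus strand), with the 11 bases centred on the summit in capitals.
Col4a2, chr8:11312930-11312959: tcctcccgcGCCCCGATTCCacgagcccct
Col5a1, chr2:28032545-28032688: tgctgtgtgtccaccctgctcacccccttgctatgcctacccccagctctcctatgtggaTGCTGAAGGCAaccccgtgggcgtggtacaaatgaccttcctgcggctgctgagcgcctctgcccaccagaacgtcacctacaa
Cytidine made up 17 of the 30 bases shown for Col4a2 (56.7%) and 54 of the 144 shown for Col5a1 (37.5%). Most of the 11 capital bases were cytidine in Col4a2 but not in Col5a1. Each stretch is a part of its peak, of 209 bp in Col4a2 and 261 bp in Col5a1. The whole Col4a2 peak lay in its window, but only 30 bases at the summit were counted. The cytidine shares thus rest on stretches of unlike length. No other sequence was set beside these shares. The list gave no strand, so the strand of the RNA under either summit was not known.

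Of the 44 collagens, 24 held at least 1 peak (54.5%, 95% Wilson interval 40.1 to 68.3%), against 30.7% of all protein-coding genes. Peaks were concentrated in few of them. At least 10 peaks were found in 12 collagens (27.3%), against 1.37% of all protein-coding genes, and these 12 held 190 of the 221 peaks (86.0%). A further 7 held 2 to 9 peaks and 5 held 1. Collagen genes are long. Their span was 114 kb in the median, and that of all protein-coding genes 17.1 kb. Among genes under 50 kb, 8 of 15 collagens held a peak (53.3%) against 26.7% of all protein-coding genes. At least 10 were held by 5 of them (33.3%), against 0.714%. Among genes of 50 to 150 kb, 10 of 18 collagens held a peak (55.6%) against 42.6% of all protein-coding genes, and 6 (33.3%) held at least 10, against 3.21%. Among genes of at least 150 kb, 6 of 11 collagens held a peak (54.5%) against 48.9%, so the shares lay closer together in the longest genes. In that range 1 collagen (9.09%) held at least 10, against 4.52%. Transcript levels were not analysed here, and their part in these shares was not tested.

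**Figure D1:**
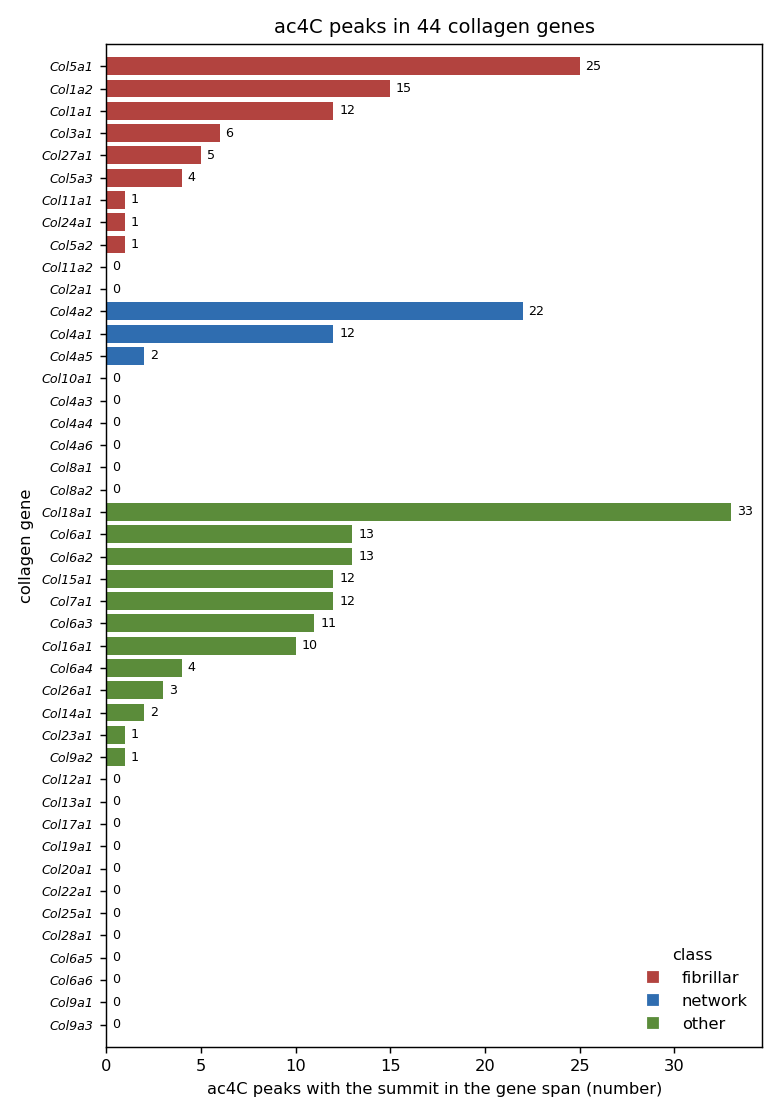
Number of ac4C peaks with the summit in the span of each of the 44 collagen genes, from 1 peak list. Bars are coloured by class. Col18a1 held the most (33), followed by Col5a1 (25) and Col4a2 (22), and 20 genes held 0.

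Fibrillar collagens held a peak most often, in 9 of 11 genes (81.8%, 52.3 to 94.9%), with 70 peaks. These were Col5a1 (25 peaks), Col1a2 (15), Col1a1 (12), Col3a1 (6), Col27a1 (5), Col5a3 (4), and Col5a2, Col11a1 and Col24a1 (1 each). Col2a1 and Col11a2 held 0. In the network class, 3 of 9 genes held a peak (33.3%, 12.1 to 64.6%), and all 36 peaks lay in type IV chains. Col4a2 held 22, Col4a1 12 and the X-linked Col4a5 2, while Col4a3, Col4a4, Col4a6, Col8a1, Col8a2 and Col10a1 held 0. Among the others 12 of 24 held a peak (50%, 31.4 to 68.6%), with 115 peaks, and the intervals of the 3 classes overlapped.

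Within the other collagens, both multiplexins held many peaks, 33 in Col18a1 and 12 in Col15a1. These are basement membrane collagens with sugar chains, and the end of the type XVIII chain is released as endostatin. Type VI collagen, which forms beaded filaments near cells, had 13 peaks in Col6a1, 13 in Col6a2, 11 in Col6a3 and 4 in Col6a4, with 0 in Col6a5 and Col6a6. Col7a1, whose protein anchors the basement membrane to the stroma, held 12. The fibril-associated genes held 10 in Col16a1, 2 in Col14a1 and 1 in Col9a2, and 0 in Col9a1, Col9a3, Col12a1, Col19a1, Col20a1 and Col22a1. Of the transmembrane collagens Col23a1 held 1, and Col13a1, Col17a1 and Col25a1 held 0. Col26a1 held 3 and Col28a1 held 0. A collagen without a peak in this list may still carry enrichment too weak or too thinly covered to be called. A peak in no protein-coding gene lay 1516 bp beyond the lower end of Col22a1 (7.46-fold, 13 fragments).

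Per length of gene, peaks were densest in fibrillar collagens. The pooled density was 0.669 peaks per 10 kb of span (95% Poisson interval 0.522 to 0.846) in fibrillar, 0.361 (0.298 to 0.433) in other and 0.297 (0.208 to 0.411) in network collagens, against 0.406 over all collagens and 0.195 over all protein-coding genes. These intervals cover counting error alone, and peaks of a gene share its transcript. The order was the same without the gene with most peaks in each class, at 0.504 without Col5a1, 0.267 without Col18a1 and 0.130 without Col4a2. It turned around when genes with no peak were left out of the length. The density was then 0.961 in other, 0.774 in network and 0.708 in fibrillar collagens, so the order of the classes depended on whether genes without a peak were counted.

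Single genes spread far more widely than the classes. Col6a1 had 7.53 peaks per 10 kb, Col1a1 7.13, Col6a2 4.66, Col1a2 4.18 and Col7a1 3.84. Of 13962 protein-coding genes with a span of at least 10 kb, 10 were denser than Col6a1 and 16 denser than Col1a1. At the other end, Col23a1 (0.0340), Col24a1 (0.0385) and Col11a1 (0.0526) each had 1 peak in a span of at least 190 kb. The densest collagens were also short, at 16.8 kb for Col1a1 and 17.3 kb for Col6a1.

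Col1a1 stood apart in how much of its span lay under peaks. Its 12 peaks covered 12074 bp, or 71.8% of the span, and 0 of the 5100 protein-coding genes with a peak and a span of at least 10 kb had a larger share. The median of those genes was 1.79%. Peaks covered 30.3% of Col6a1, 27.3% of Col6a2, 22.1% of Col7a1, 13.6% of Col1a2 and 10.5% of Col18a1, and under 7% of every other collagen. Exons were not told from introns, so the covered share includes introns that a peak bridges.

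**Figure D2:**
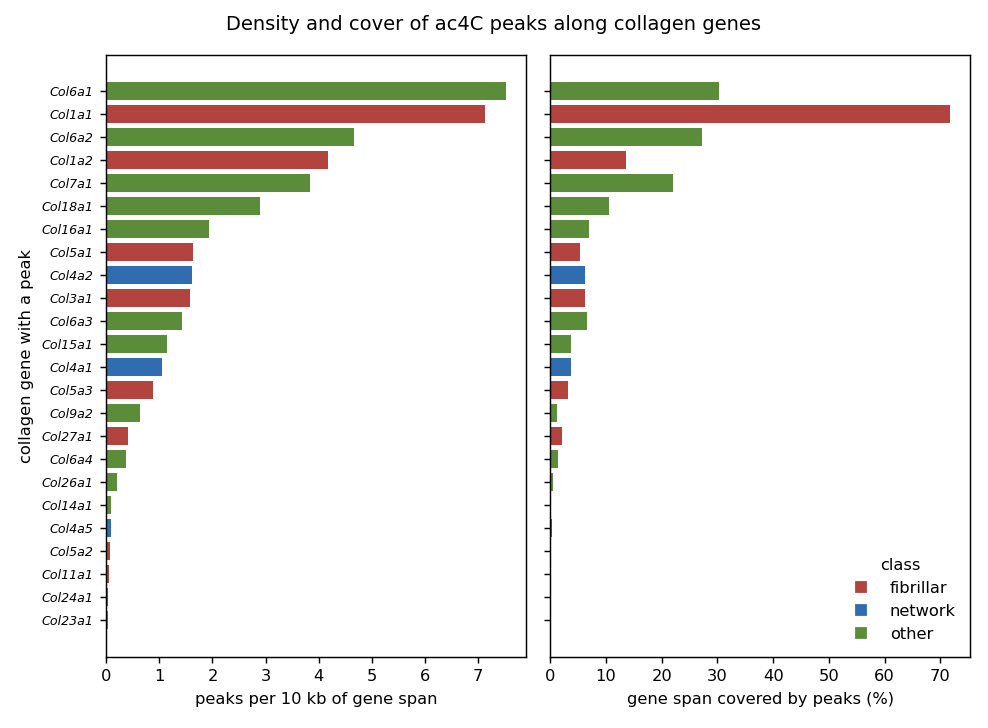
Peaks per 10 kb of gene span (left) and percent of the span covered by peaks (right) in the 24 collagen genes with a peak, coloured by class. Col6a1 and Col1a1 had the highest densities (7.53 and 7.13), and Col1a1 had the largest cover (71.8%), followed by Col6a1 (30.3%).

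Type I collagen, made of Col1a1 and Col1a2 chains, is the most abundant fibril protein of most connective tissue. The peaks of Col1a1 rested on 46 to 226 fragments at the summit over a background of 7.88 to 44.2. Their fold enrichment ran from 2.97 to 6.78, so all 12 were deep and moderate in enrichment. The highest was at chr11:94946103-94947939, 1837 bp wide, at 6.78 (5.74 to 7.95) on 149 fragments. The widest, at chr11:94940926-94943908, measured 2983 bp and stood at 3.95. Col1a2 had narrower peaks, with a median of 267.0 bp against 644.5 bp in Col1a1 and none wider than 610 bp. Its highest peak, chr6:4533567-4533833, stood at 5.95 (4.93 to 7.12) on 117 fragments, an interval that overlapped that of Col1a1.

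Col3a1 encodes the fibril chain that accompanies type I in soft and distensible tissue. It held 6 peaks, all at a high background of 21.3 to 51.7 fragments. From the start to the end of the gene they stood at 3.08, 2.24, 2.94, 4.58, 2.74 and 2.13. The 4.58-fold peak (3.74 to 5.55, 101 fragments, chr1:45340733-45341153) had an interval that lay above those of 4 of the other 5 and overlapped that of the 3.08-fold peak (2.45 to 3.83).

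Type V collagen sets the start and width of fibrils. Its 3 genes differed widely. Col5a1 had 25 peaks with a median background of 5.25 fragments, and its highest lay at the gene start (chr2:27886469-27886878, 10.4-fold, 8.27 to 12.8, 82 fragments). The summit of that peak was 262 bp from the lower end of the span. Col5a2 had 1 peak of 2.2-fold (1.67 to 2.84) on 56 fragments over a background of 25, at chr1:45375953-45376240. Col5a3 had 4 peaks of 4.18- to 7.21-fold on 13 fragments in the median. At the single summit of Col5a2 the background was near the median of the Col1a1 peaks (20.8). Background elsewhere in Col5a2 was not known. The remaining fibrillar genes had lower backgrounds. In Col27a1 the 5 peaks reached 8.15-fold with a median background of 0.438 fragments, while Col11a1 stood at 4.73 on 12 fragments and Col24a1 at 4.62 on 21.

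Col4a1 and Col4a2 encode the chains of the common type IV network and lie head to head on chromosome 8. Their spans overlap slightly, and the peak at chr8:11312866-11313074 sat at that shared head, 139 bp inside the Col4a2 span and 118 bp before the listed start of Col4a1. It stood at 6.26 (4.06 to 9.26) on 23 fragments. By the summit rule it counted for Col4a2, as did its neighbour at chr8:11313264-11313854 (2.53, 1.53 to 3.96). Further along, the highest peak of Col4a2 was at chr8:11444767-11445097 (10.9-fold, 8.67 to 13.6, 77 fragments) and that of Col4a1 at chr8:11206283-11206546 (7.75, 6.15 to 9.65, 78 fragments). Median background was 15.3 fragments in Col4a1 and 7.18 in Col4a2. Col4a5, a chain of the type IV network of other basement membranes, had peaks of 3.55- and 8.37-fold.

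Among the other collagens, Col18a1 had the highest value of all. The peak at chr10:77054794-77055144 stood at 17.5 (14.1 to 21.3) on 93 fragments over a background of 4.39, and its interval lay above that of the highest peak of every other collagen except Col26a1. Only 8 protein-coding genes held more peaks than Col18a1. Another of its peaks, chr10:77112279-77113721, covered an internal start of the gene listed by RefSeq, with the summit 715 bp after that start (5.58, 3.80 to 7.93). Col26a1 reached 10.4 (6.02 to 17.0), but on 14 fragments.

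The 3 main type VI chains had similar values at their highest peaks. Their median fold enrichments were 4.08 in Col6a1, 3.87 in Col6a2 and 2.96 in Col6a3. The highest peak stood at 5.33 (4.23 to 6.63) in Col6a1 (chr10:76723430-76723717), at 5.39 (4.66 to 6.20) in Col6a2 (chr10:76595786-76596960) and at 6.36 (4.33 to 9.03) in Col6a3 (chr1:90786497-90786875), and these intervals overlapped. Their median backgrounds were 13.9, 16.2 and 14.9 fragments. The lowest collagen value, 1.91, was a peak of Col6a3. In Col7a1 the 12 peaks had a low background (median 2.16) and reached 6.66. Col15a1 reached 7.03, Col16a1 8.10, Col6a4 5.92, Col23a1 5.82, Col14a1 5.65 and Col9a2, on 5 fragments, 4.17.

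Over the 221 peaks the median fold enrichment was 4.62 (interquartile range 3.52 to 5.65), against 5.56 (4.32 to 7.30) over the 19892 peaks in protein-coding genes. By class it was 4.65 in fibrillar, 4.66 in other and 4.20 in network collagens, and this order turned with the choice of peaks. Where the −log10 q reached 10, the network median was the highest of the classes, at 5.75 against 4.96 in fibrillar and 5.10 in other collagens. It was also the highest at the top peak of each gene, at 8.37 (3 genes) against 5.95 and 6.14. Of the 24 collagens with a peak, 21 had a median below 5.56, and the 3 others were Col27a1, Col4a5 and Col23a1. The like share of all genes with a peak was not worked out. Counted by peak, 72.4% in collagens lay below 5.56, against 49.8% of all peaks in protein-coding genes. Enrichment above 10-fold was found at 5 of the 221 peaks, in 4 genes, with 2 in Col18a1 and 1 each in Col4a2, Col5a1 and Col26a1. The share above 10-fold over all peaks in protein-coding genes was not worked out. The highest value was 56.3 among those 19892 peaks and 17.5 among the 221 of collagens, so these maxima come from sets of very unlike size.

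The summits of collagens were deep, and so was their background. The median was 40 fragments over a background of 8.75, against 22.0 over 2.63 in all protein-coding genes. A background of at least 16 fragments was found at 54 collagen peaks (24.4%) in 12 genes, against 3.36% of the peaks of other protein-coding genes. Background enters the fold enrichment as its denominator, so peaks were also set side by side at like background. At 16 or more fragments the median fold enrichment was 3.61 in collagens and 3.17 elsewhere. At 4 to 16 fragments it was 4.41 (99 peaks) and 4.50, and at 1 to 4 fragments 5.08 (62 peaks) and 6.05. Below 1 fragment there were 6 collagen peaks, at 5.56 against 6.40. The collagen median was therefore the lower one in the 3 ranges below 16 fragments and the higher one above. The gap was widest below 4 fragments. What the background was estimated from was not given in the sources used here.

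**Figure D3:**
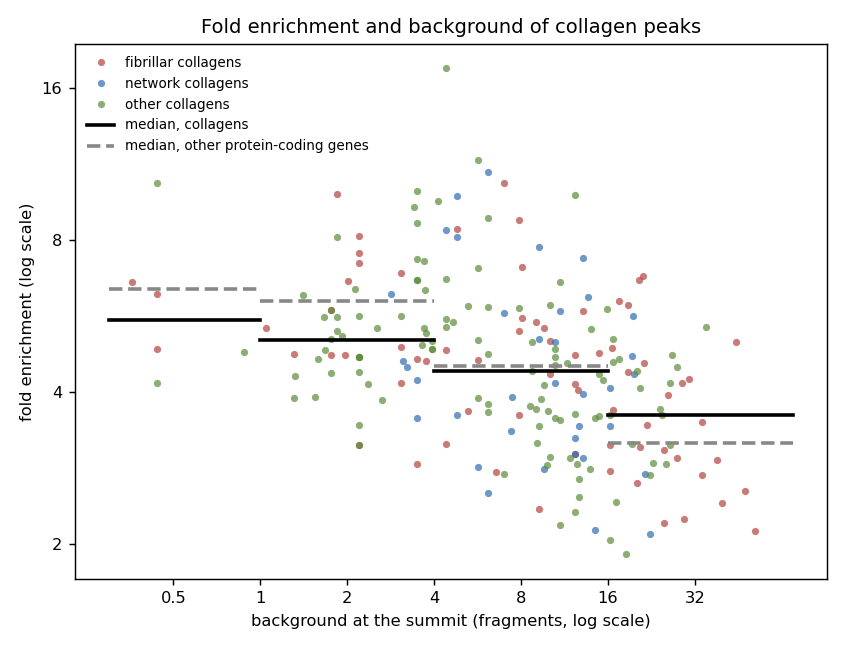
Fold enrichment against background at the summit for the 221 collagen peaks, both on log scales. Points are peaks coloured by class, solid lines are the collagen medians and dashed lines the medians of peaks in other protein-coding genes, within backgrounds of under 1, 1 to 4, 4 to 16 and at least 16 fragments. The solid line lies below the dashed one at 1 to 4 fragments (5.08 and 6.05) and above it from 16 (3.61 and 3.17).

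Over all peaks of a class, the median width was 347.0 bp in fibrillar, 327.5 bp in network and 321.0 bp in other collagens. Over all collagens it was 331.0 bp, against 315.0 bp in all protein-coding genes. The network median was the smallest of the classes among the more strongly called peaks. Where the −log10 q reached 10, medians were 264.0 bp in network, 360.0 bp in other and 382.5 bp in fibrillar collagens, and at the highest peak of each gene 264.0, 319.5 and 406.0 bp. The network values rest on 19 peaks and on 3 genes, in that order. Both lay within the interval of the median over all network peaks, from the ranks of the peaks. They therefore show no clear shift from 327.5 bp. At least 1000 bp was reached by 12 collagen peaks (5.43%), a share near the 5.44% of all peaks in protein-coding genes. These wide peaks lay in Col1a1 and Col6a2 (3 each), Col18a1 (2), and Col27a1, Col4a2, Col6a1 and Col7a1 (1 each). The smallest width in the list, 200 bp, was shared by 9 collagen peaks, and its share over all peaks was not worked out. Neighbouring summits of a collagen lay a median of 2186 bp apart, against 2304 bp in all protein-coding genes.

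Strand was at hand for 35 of the 44 collagens through the start windows. The place of a summit could therefore be read from gene start to gene end for 203 summits in 20 genes. Summits grew more frequent toward the gene end. The final 20% of the span held 37.9% of the summits (95% Wilson interval 31.5 to 44.8%) and the first 20% held 10.8% (7.27 to 15.9%). In all protein-coding genes of known strand these shares were 38.9% and 15.9%, and in those with at least 10 peaks 37.4% and 10.1%. Of 16 collagens with 2 or more peaks and known strand, 13 had more summits after the middle of the span than before it. Past the middle lay 70.4% of the collagen summits, near the shares elsewhere. These were 66.6% in all protein-coding genes and 70.2% in those with at least 10 peaks. Within 5 kb of the gene end lay 14.8% of the summits, against 37.8% in all protein-coding genes and 17.2% in those with at least 10 peaks.

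By class, the final 20% held 55.6% of the network summits (39.6 to 70.5%), 40.4% of the fibrillar (28.6 to 53.3%) and 30.9% of the other (23.0 to 40.1%). The intervals of the network and other classes overlapped slightly. The network value rests on 2 genes, since Col4a1 and Col4a2 held 19 of those 20 summits. Without Col18a1 the share in the other class was 22.1%.

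**Figure D4:**
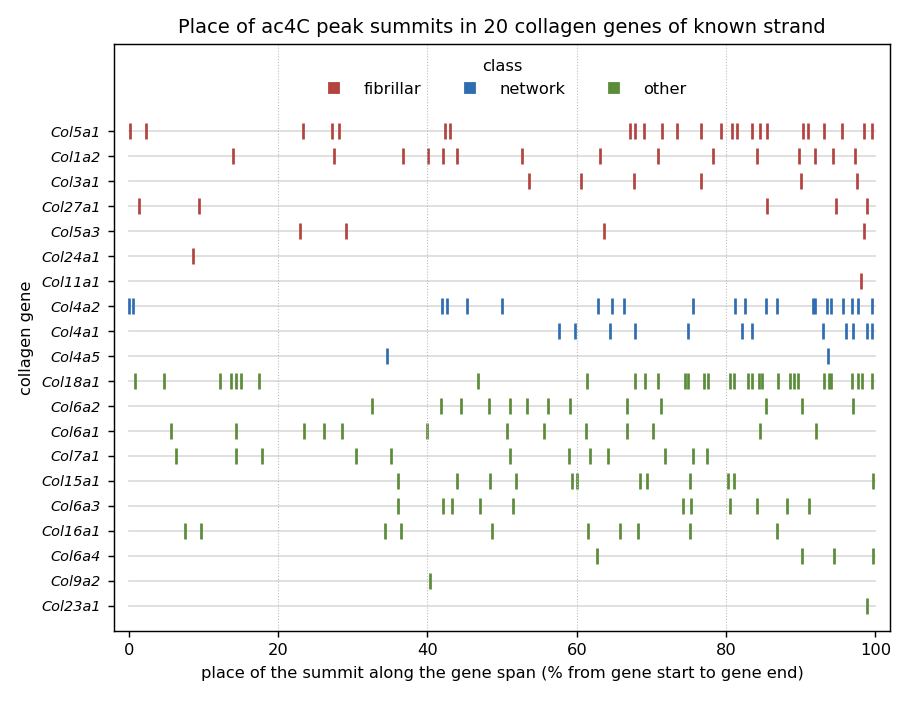
Place of each peak summit along the gene span, from gene start (0%) to gene end (100%), in the 20 collagen genes of known strand that hold a peak, coloured by class. Col4a1 and Col3a1 have no summit before 57.6% and 53.6% of their span, and Col18a1 has 7 summits up to 17.4% and 25 from 61.4% on.

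Genes differed in where their peaks began. All 12 summits of Col4a1 lay from 57.6% of the span on, all 6 of Col3a1 from 53.6% and all 4 of Col6a4 from 62.7%. In Col15a1, Col6a3 and Col6a2 the first summit lay at 36.0%, 36.1% and 32.6%. Col18a1 had 7 summits within the first 17.4% of the span and 25 from 61.4% on, with 1 between, at 46.8%. The 7 early summits rested on 10 to 18 fragments and reached 5.37-fold, while the final 20% held 17 summits on 22 to 129 fragments. In Col6a1 and Col7a1 the summits were spread along the gene, and Col7a1 had none past 77.4%.

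For 4 collagens with a peak no start window was at hand, which left 18 summits without a direction. Read from the lower coordinate, the 12 summits of Col1a1 were spread from 1.16% to 98.9% of the span, with 2 in the first and 2 in the final 20%. The single peak of Col5a2 and all 3 of Col26a1 lay in the first 20%, and Col14a1 had 1 peak in the first and 1 in the final 20%.

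A list of 52 genes whose proteins make, process, bind or cut collagen was set beside the collagens. At least 1 peak was found in 32 (61.5%, 48.0 to 73.5%), against 30.7% of all protein-coding genes, and their 146 peaks had a median fold enrichment of 5.94 over a median background of 3.50 fragments. Cross-linking enzymes held a peak in 4 of 5 genes and proteins that bind collagen fibrils in 5 of 5 (Dcn, Bgn, Fmod, Lum and Sparc). In Dcn, which encodes the fibril-coating proteoglycan decorin, the single peak stood at 1.75 (1.34 to 2.25) on 59 fragments over a background of 33.3. That of Lum, its relative lumican, stood at 2.49 (2.01 to 3.05), so both had weak enrichment at high background. Among enzymes that hydroxylate or glycosylate the chains, 8 of 15 did. The prolyl 4-hydroxylase subunits P4ha1, P4ha2 and P4ha3 held 0 peaks, while their partner P4hb held 3. Propeptide cleavage had 5 of 8, chaperones and secretion 3 of 5, collagenases and gelatinases 3 of 5 and receptors 4 of 9.

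Most peaks in that list were found in the lysyl oxidase Loxl2 (17), the collagen receptor kinase Ddr1 (13), and the propeptide-cleaving proteases Bmp1 and Adamts2 (11 each). The greatest fold enrichment was that of Bmp1, at 32.9 (24.7 to 42.9), with 52 fragments and a background of 0.613. It was followed by Loxl2 at 19.5 (14.3 to 26.0) and Loxl1 at 18.0 (12.8 to 24.8). The interval of Bmp1 lay above that of each highest collagen peak, and overlapped those of Loxl2 and Loxl1 slightly.

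Other families of the matrix and its receptors gave different values. Laminins, which share the basement membrane with type IV collagen, held a peak in 7 of 11 genes (63.6%), with 0.414 peaks per 10 kb and a median fold enrichment of 6.08. The 4 basement membrane proteoglycans and nidogens all held peaks, at 3.16 per 10 kb and a median of 6.59. Integrins held a peak in 10 of 27 genes (37.0%), at 0.254 per 10 kb and a median of 5.45. Over all protein-coding genes these values were 30.7%, 0.195 per 10 kb and 5.56. The interval of the integrin share (21.5 to 55.8%) included 30.7%, so integrins lay near all genes in share and median. Median backgrounds in these families were 3.06, 5.69 and 1.75 fragments, all below the 8.75 of the collagens. The collagens thus had the lowest median fold enrichment and the highest background of these 4 families, and the difference was not tested.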

How the data were processed

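One list of 21192 peaks in narrowPeak layout was used for 1 ac4C immunoprecipitation and 1 input library. Per the submitters' processing notes, HISAT2 2.2.1, MACS3 3.0.0a7 and the mm10 build were used. The fold enrichment (a ratio), the −log10 p and the −log10 q of each peak were deposited by the authors, and the largest q was 0.0499. Library read totals were not used here. Fragments at a summit were taken as the whole number for which fragments plus 1 over background plus 1 gave the fold enrichment and the Poisson tail gave the p-value, within a relative 1e-05. Such a number was found for 21192 of 21192 peaks, and on simulated data for 100.0% of 1000. Poisson and Wilson intervals (95%) cover counting error only, and PCR copies were not told apart.

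Gene spans came from RefSeq GRCm38.p6, the assembly of mm10, and strands from its start windows. No proteins, exons or genome were used, so 1 planned description (Gly-X-Y repeats) and the density per 1000 residues were not made. Peaks were counted by summit in the span, also where protein-coding genes overlap. All collagens are named. Positions are given for the fixed abundant genes and the genes leading each class by number or fold enrichment, and for other peaks chosen after their values were seen. In the list of 52 the leading genes by number and fold enrichment are named, and P4ha1 to P4ha3, P4hb and the fibril-binding genes (Dcn, Bgn, Fmod, Lum, Sparc) were added after their values were seen. The members, classes and lists were chosen with earlier results of these data known. Python 3.11.15, pandas 2.3.3 and scipy 1.17.1 were used.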

Additional observations from a re-analysis of the deposited data

How the results depend on the processing

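Of 87 values under alternatives, 51 stayed within the limits set. For counts these were 1.5 times either way, and for densities and shares the 95% counting interval. For median fold enrichment and width they were the 95% interval of the median, from the ranks of the peaks. All 28 values with any overlap of 1 bp or with summits in exactly 1 protein-coding gene stayed within these limits. These 2 alternatives could hardly move a value. None of the collagen summits lay in 2 or more protein-coding genes, and any overlap gave 222 peaks in place of 221. The network medians for type IV alone were fixed too, since all 36 network peaks lay in type IV chains. By construction, a −log10 q of at least 10 and a fold enrichment at or above the list median left 118 and 60 of the 221 peaks. Densities per 10 kb under these filters were 0.402 and 0.182 in fibrillar, 0.157 and 0.0907 in network, and 0.179 and 0.0942 in other collagens. Median fold enrichments were 4.96 and 6.78, 5.75 and 7.36, and 5.10 and 6.66 in the same order, so network turned from the lowest class to the highest. Median widths were 382.5 and 353.0, 264.0 and 264.0, and 360.0 and 358.5 bp. The final 20% of the span then held 73.7% and 72.7% of the network and 42.9% and 50% of the other summits. Without the gene with most peaks the densities were 0.504 (fibrillar), 0.130 (network) and 0.267 (other), and for the other class the median fold enrichment was 4.27 and the share in the final 20% was 22.1%. The median density over genes was 0.413, 0 and 0.0170 in the order fibrillar, network and other. With genes holding a peak only, an alternative chosen after seeing the data, network stood at 0.774 and other at 0.961. At the highest peak of each gene the median fold enrichment was 5.95, 8.37 and 6.14 (network again highest), and the width 406.0, 264.0 and 319.5 bp. Within 5 kb of the gene end lay 19.3%, 19.4% and 10.9% of the summits. The cause of these changes beyond construction was not tested. No paired analysis was possible because each group held 1 library. Weakly enriched sites on transcripts of low background may be absent from the list. No limit of detection was worked out, and the median of 22.0 fragments covers called summits only.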
